A study of Mus musculus with 6 samples.

Results

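The guanylate-binding proteins (GBPs) and immunity-related GTPases (IRGs) of the mouse were followed in the proximal tibia of Longshanks and Control mice. The 10 genes described are *Gbp2*, *Gbp3*, *Gbp4*, *Gbp6*, *Gbp7*, *Irgm1*, *Irgm2*, *Igtp*, *Iigp1* and *Tgtp2*, taken by their Ensembl identifiers on GRCm38. They are 10 of the 47729 genes in the table and of the 19308 that passed a filter on low counts (20 reads or more on average across all 6). All 10 passed, *Gbp6* and *Tgtp2* only through LS1, since their Control libraries averaged under 20 reads. The series compared 3 LS1 mice, from a Longshanks line selectively bred for long tibiae relative to body mass, with 3 mice from the random-bred Control line (labelled Control (ICR)), at 14 days after birth and in generation F13. Each library came from 1 mouse, the mice came from different families, and both proximal epiphyses of a mouse were pooled. LS1 is a single selected line, so the comparison is between that line and Control. The sampled tissue was bone, cartilage and marrow together, and polyadenylated RNA was sequenced on a SOLiD 5500xl instrument.

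GBPs and IRGs are large GTPases that cells make after interferon signalling and that act inside the cell against parasites and bacteria held in vacuoles. Promoters of genes that answer to interferon-gamma often hold a gamma-activated sequence (GAS), and IRF family factors bind the interferon-stimulated response element (ISRE). The IRGM proteins (*Irgm1*, *Irgm2* and *Igtp*, also called *Irgm3*) sit on the cell's own membranes and hold the effector IRGs in check, while effector IRGs such as *Iigp1* (Irga6) and *Tgtp2* (Irgb6) and the GBPs coat the vacuole of the intruder. In bone, interferon-gamma is known as a brake on osteoclast formation.

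Promoter sequence is shown first, because the members share elements there that the choice of genes did not use. RefSeq windows on GRCm38.p6, from 250 bases before to 50 bases after a transcript start, were held for 7 of the 10 genes (*Gbp4*, *Gbp6* and *Iigp1* had none). Both strands were searched for a GAS motif (TTCNNNGAA) and for an ISRE core (GAAANNGAAA). The ISRE core was in 7 of the 7 genes, against 3.99% of all 27025 genes with a window, and GAS was in 4 of 7 (*Gbp7*, *Irgm2*, *Igtp* and *Tgtp2*), against 9.55%. Both motifs together were in 4 of 7, against 0.540% of all genes. The last 120 bases before each RefSeq start are printed 5′ to 3′ along the gene, with every match to either motif in capitals. They are chr3:142620543-142620662 (+) for *Gbp2*, chr3:142559924-142560043 (+) for the first start of *Gbp3*, chr3:142530216-142530335 (+) for *Gbp7*, chr11:48871421-48871540 (-) for *Irgm1*, chr11:58214857-58214976 (+) for *Irgm2*, chr11:58199436-58199555 (+) for *Igtp* and chr11:49064213-49064332 (-) for *Tgtp2*.
Gbp2: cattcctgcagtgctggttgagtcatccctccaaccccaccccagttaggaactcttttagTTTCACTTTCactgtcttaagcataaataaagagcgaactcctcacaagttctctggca
Gbp3: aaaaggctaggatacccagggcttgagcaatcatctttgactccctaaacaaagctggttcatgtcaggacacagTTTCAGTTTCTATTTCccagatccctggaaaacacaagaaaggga
Gbp7: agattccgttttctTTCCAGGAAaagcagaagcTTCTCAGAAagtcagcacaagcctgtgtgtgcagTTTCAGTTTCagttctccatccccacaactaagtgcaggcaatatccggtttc
Irgm1: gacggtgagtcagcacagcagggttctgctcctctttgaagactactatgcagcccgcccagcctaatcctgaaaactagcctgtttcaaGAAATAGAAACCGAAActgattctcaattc
Irgm2: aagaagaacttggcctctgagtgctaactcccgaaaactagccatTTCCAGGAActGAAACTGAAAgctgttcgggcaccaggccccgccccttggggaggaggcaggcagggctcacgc
Igtp: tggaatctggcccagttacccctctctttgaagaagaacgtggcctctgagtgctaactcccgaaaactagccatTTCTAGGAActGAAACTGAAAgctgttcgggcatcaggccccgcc
Tgtp2: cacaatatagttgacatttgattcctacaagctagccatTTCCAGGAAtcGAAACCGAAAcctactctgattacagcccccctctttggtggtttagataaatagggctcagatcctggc

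Among the genes printed, the GBP promoters carried the ISRE core on the strand opposite to the gene, and the IRG promoters carried it on the gene's own strand. In the rest of the family *Gbp2b*, *Gbp5*, *Tgtp1* and *9930111J21Rik1* followed this split. *Gm12250*, from the cluster of *Igtp* and *Irgm2*, did not, with its cores on the opposite strand. The first base of the core lay 59 bases before the start of *Gbp2* and 53 before that of *Gbp7*. *Gbp3* had a pair of overlapping cores at 45 and 39 bases, and *Irgm1* a pair at 30 and 24 bases. A second *Gbp3* start, with its own window, had no match. In *Irgm2*, *Igtp* and *Tgtp2* a GAS was followed after 2 bases by an ISRE core, starting 75, 45 and 81 bases before the start. This arrangement (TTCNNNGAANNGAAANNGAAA), searched for after it had been seen in these promoters, was in 5 of 27025 genes (0.0185%), namely these 3, *Tgtp1* and *Gm12185*. The windows of *Igtp* and *Irgm2* shared an unbroken run of 61 bases and those of *Irgm2* and *Tgtp2* one of 17 bases, so these genes are not independent examples. The locus of *Gm12185* overlaps *Tgtp1*, itself a near-identical copy of *Tgtp2*, so the 5 genes need not be 5 separate occurrences. *Gbp7* held a pair of GAS matches, at 106 and 87 bases. Of other lists, the ISRE core was in 5 of 8 further family genes with a window, 8 of 15 type I interferon induced genes, 2 of 10 interferon-gamma induced genes and 0 of 8 chondrocyte markers. A match is a run of letters and was not tested as a binding site.

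**Figure D1:**
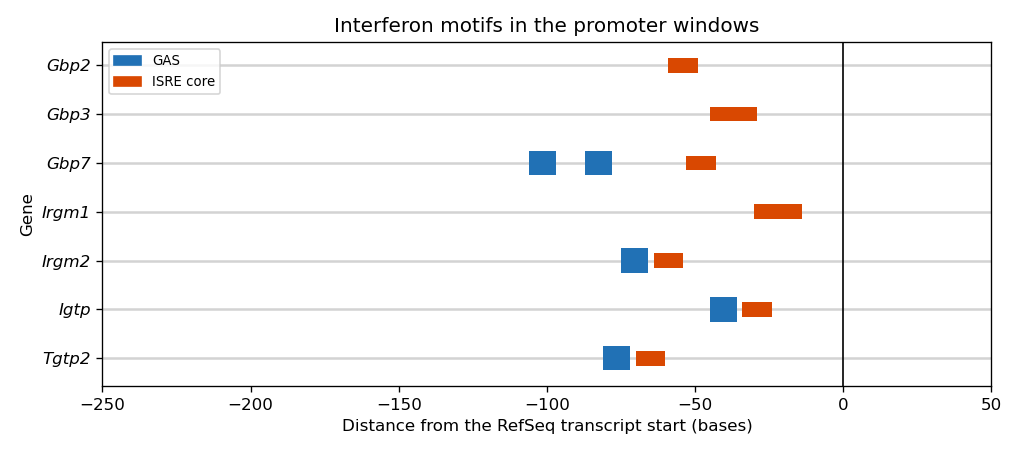
Positions of GAS (tall blue blocks) and ISRE core (short orange blocks) matches in the promoter windows of the 7 genes with a RefSeq window, with the distance in bases from the transcript start (0) on the x axis and 1 line per gene. All matches begin between 106 and 24 bases before the start, and in *Irgm2*, *Igtp* and *Tgtp2* the GAS stands directly before the ISRE core.

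The genes lie in clusters. By GENCODE M21 on GRCm38, *Gbp7* (chr3:142530342-142550149), *Gbp3* (chr3:142560026-142573209) and *Gbp2* (chr3:142620602-142638008) are on the plus strand of chromosome 3, and *Gbp6* (chr5:105270702-105293698) and *Gbp4* (chr5:105115767-105139586) are on the minus strand of chromosome 5. *Irgm1* (chr11:48861968-48871683) and *Tgtp2* (chr11:49057194-49064206) share a cluster on chromosome 11, *Igtp* (chr11:58199556-58207591) and *Irgm2* (chr11:58199618-58222782) share another, and *Iigp1* is on chromosome 18. The loci of *Igtp* and *Irgm2* overlap on the same strand, since the longest *Irgm2* transcript starts inside *Igtp*. *Gbp4* overlaps *Gbp8* and *Gbp9* on its own strand, *Tgtp2* overlaps *Olfr56* on the opposite strand, and *Tgtp1* and *Tgtp2* are near-identical copies. Reads of these genes could have been split or mixed in counting, and their values are uncertain to that extent.

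Values are read counts per gene divided by 1 size factor per library, called normalised counts here. The libraries held 68803249 to 76581954 reads in Control and 82227711 to 88745366 in LS1. LS1 and Control were compared by limma on log2(value + 1), with Benjamini-Hochberg adjustment over all 19308 genes and a threshold of 0.05. The median log2 difference over all genes was 0.0054, and 14 genes (0.0725%) passed, of which 2 (0.0104%) were higher in LS1.

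Transcripts of all 10 genes were far more abundant in LS1 replicate 1 and LS1 replicate 2 than in any Control library, while LS1 replicate 3 resembled Control in level. Both LS1 replicate 1 and LS1 replicate 2 lay above every Control library in 10 of 10 genes, and LS1 replicate 2 lay above LS1 replicate 1 in 10 of 10. These libraries were singled out after their values were seen. The share of all genes with both above Control was not computed, so the count is a description. Relative to the Control mean, the normalised count was 1.74-fold to 25.9-fold (median 8.45-fold) in LS1 replicate 1 and 4.13-fold to 142-fold (median 24.4-fold) in LS1 replicate 2. In LS1 replicate 3 it was 0.669-fold to 2.01-fold (median 0.928-fold), above the range of Control in 3 genes, within it in 2 and below it in 5. In sum the 10 genes took 147, 132 and 119 CPM (reads per library total, scaled) in the Control libraries and 551, 1628 and 104 CPM in LS1 replicates 1, 2 and 3.

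With this spread inside the LS1 group, none of the 10 genes passed the adjusted threshold by limma, although their median log2 difference was 2.55. Their adjusted p ranged from 0.378 to 0.691. At an unadjusted p below 0.05, limma called 1 gene, *Gbp6*, where 7.08% of all genes were called higher in LS1 and 12.9% in either direction. The lowest LS1 library exceeded the highest Control library for 3 genes, *Gbp2*, *Gbp3* and *Gbp6*, and this was so for 10.3% of all genes tested. The groups overlapped for the other 7. The edgeR quasi-likelihood test on the recovered reads called 0 of 10 (adjusted p 0.180 to 0.361, share of all genes called higher 0.00518%), and limma-voom also called 0 (0.00518%). DESeq2 called 6 of 10 higher in LS1 (*Gbp2*, *Gbp3*, *Gbp4*, *Gbp6*, *Iigp1* and *Tgtp2*, adjusted p 0.00538 to 0.0486), against 1.43% of all genes called higher and 2.36% called in either direction.

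**Figure D2:**
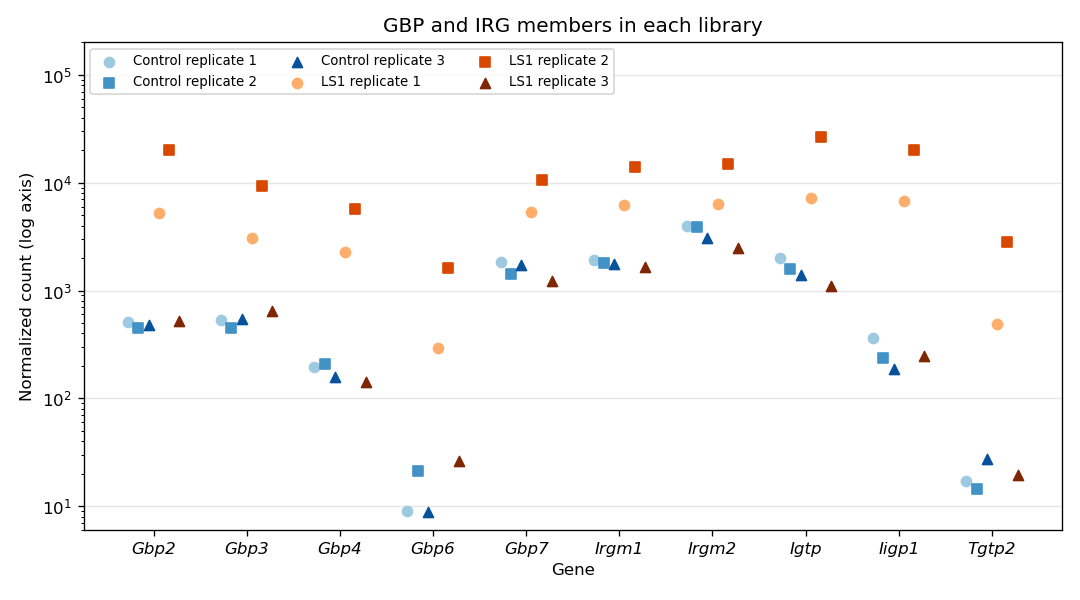
Normalised count (log axis) of the 10 genes, with 1 point per library: Control replicates in blue and LS1 replicates in orange to brown, with a circle, square and triangle for replicates 1, 2 and 3. The orange circle and square (LS1 replicates 1 and 2) lie above every blue point in 10 of 10 genes, and the brown triangle (LS1 replicate 3) lies among or near the blue points.

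Among the IRGM regulators, *Irgm1*, which is needed for resistance to mycobacteria and for upkeep of blood stem cells, measured 1925, 1783 and 1752 in Control and 6187, 13924 and 1657 in LS1. The third LS1 library was below all Control libraries, so the groups overlapped. Its log2 difference was 1.52 (SE 0.85, adjusted p = 0.528 by limma). *Irgm2*, a Golgi-associated member that restrains caspase-11, measured 3948, 3856 and 3049 in Control and 6289.6, 14958 and 2498 in LS1. It had the smallest log2 difference of the 10, 0.78 (SE 0.70, adjusted p = 0.691 by limma), and LS1 replicate 3 again lay lowest of all 6 libraries. *Igtp*, found on the endoplasmic reticulum and lipid droplets, measured 2004, 1589.8 and 1387 in Control and 7154, 26724 and 1110.0 in LS1. Here too LS1 replicate 3 was below the Control range, and the log2 difference was 1.86 (SE 1.31, adjusted p = 0.614 by limma).

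The effector IRGs *Iigp1* and *Tgtp2* started from lower levels than the IRGM regulators and differed more in the high libraries. *Iigp1*, which loads onto parasite vacuoles, measured 360.2, 238 and 186 in Control and 6778, 20030 and 247 in LS1. LS1 replicates 1 and 2 were 25.9-fold and 76.6-fold the Control mean and LS1 replicate 3 fell inside the Control range. The log2 difference was 3.68 (SE 1.88, adjusted p = 0.502 by limma). *Tgtp2*, an effector that binds vacuole membranes early, measured 17.2, 14.4 and 27.7 in Control and 491, 2806 and 19.6 in LS1. LS1 replicate 2 reached 142-fold the Control mean, and LS1 replicate 3 was again inside the Control range. The log2 difference was 3.93 (SE 1.998, adjusted p = 0.496 by limma). As *Tgtp2* passed the filter only through LS1, a higher value in LS1 was partly fixed by the filter. Of the reads of the *Tgtp1* and *Tgtp2* copies together, *Tgtp2* held 29.3%, 31.0% and 32.1% in Control and 31.3%, 51.7% and 48.8% in LS1, shares that depend on how reads common to both copies were counted.

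For the GBPs of chromosome 3, *Gbp2*, a prenylated protein that coats vacuoles, measured 511, 449 and 480.0 in Control and 5205, 20031 and 523 in LS1. The 3 Control values lay within a narrow band, and LS1 replicate 3 was only just above them. The log2 difference was 2.98 (SE 1.496, adjusted p = 0.494 by limma). *Gbp3*, also recruited to parasite vacuoles, measured 536, 449 and 549.7 in Control and 3091, 9398 and 645 in LS1. Each LS1 library exceeded Control, the third by a small margin. The log2 difference was 2.38 (SE 1.07, adjusted p = 0.453 by limma). *Gbp7*, known for bringing together parts of the NADPH oxidase, measured 1828, 1431 and 1729 in Control and 5360.2, 10558 and 1236 in LS1. LS1 replicate 3 was below the Control range, and the log2 difference was 1.32 (SE 0.87, adjusted p = 0.588 by limma).

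For the GBPs of chromosome 5, *Gbp4* measured 195, 208 and 157 in Control and 2266, 5683 and 141 in LS1. LS1 replicate 3 was the lowest of the 6 libraries, and the log2 difference was 2.71 (SE 1.55, adjusted p = 0.538 by limma). *Gbp6*, another GBP found on parasite vacuoles, was the scarcest of the 10 in Control, at 9.08, 21.1 and 8.85, and measured 292, 1625 and 26.1 in LS1. Every LS1 library exceeded Control, with LS1 replicate 3 at 2.01-fold the Control mean. It had the highest log2 difference of the 10, 4.18 (SE 1.59, unadjusted p = 0.0469 and adjusted p = 0.378 by limma). As it passed the filter only through its high LS1 libraries, a higher value in LS1 was partly fixed by the filter, and with as few as 8 reads in a library its Control values carry wide counting error.

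The count of called genes changed with the LS1 library left out. LS1 replicate 3 resembled Control, so the fit without it keeps only the high LS1 libraries, and its calls are partly fixed by that choice. Without LS1 replicate 3, limma called 7 of the 10 higher in LS1 (all but *Gbp2*, *Irgm2* and *Igtp*), against 1.17% of all genes, and the median log2 difference was 3.83. The 7 had log2 differences of 2.18 (*Gbp7*) to 5.88 (*Tgtp2*). Among the 10, the smallest adjusted p in that fit was that of *Gbp4*, with a log2 difference of 4.27 (SE 0.34, adjusted p = 0.000265 by limma). *Gbp2* had a log2 difference of 4.41 there (adjusted p = 0.0638 by limma), *Irgm2* one of 1.43 (adjusted p = 0.137) and *Igtp* one of 3.07 (adjusted p = 0.166). Without LS1 replicate 1 the count was 0 of 10 and the median 2.27, and without LS1 replicate 2 the count was 0 of 10 and the median 1.54, with 0.0155% of all genes called higher in each of those fits. Fits chosen after the data were seen, without LS1 replicate 3, called 10 of 10 by edgeR (1.24% of all genes) and 10 of 10 by DESeq2 (3.15%). In RNA from whole epiphyses, more cells of a type and more RNA per cell cannot be told apart.

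**Figure D3:**
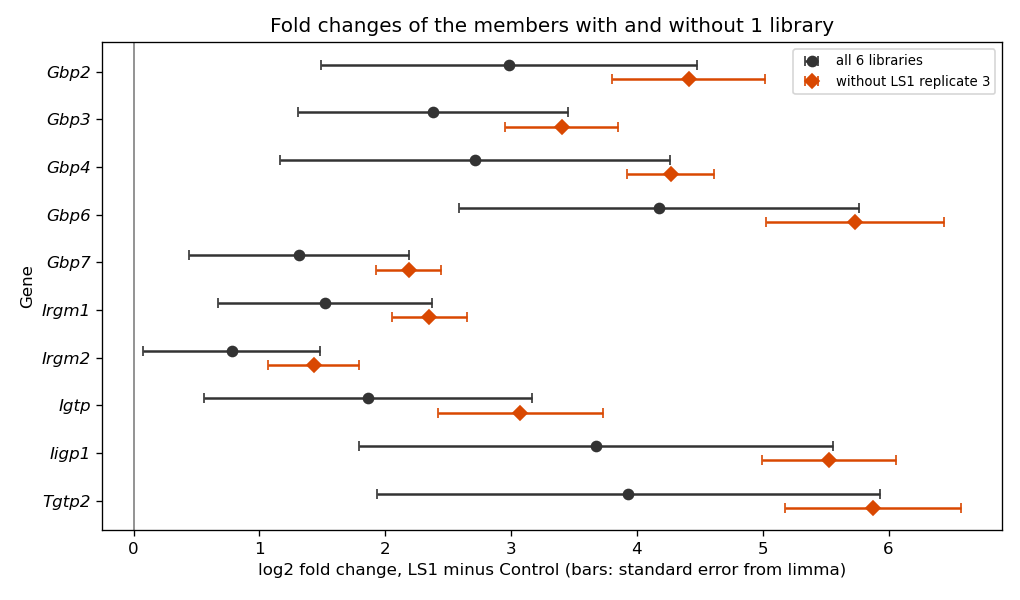
Log2 difference of LS1 minus Control for each of the 10 genes from limma with all 6 libraries (black circles) and without LS1 replicate 3 (orange diamonds), with bars of 1 standard error. Every point is above 0, and without that library the values are higher (1.43 to 5.88 against 0.78 to 4.18) with shorter bars.

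Compared per kilobase of exon, Control levels (normalised count per kb, mean ± SD, n = 3) ran in the order *Irgm2* at 980.4 ± 134, *Igtp* at 821 ± 155, *Irgm1* at 313 ± 15.9, *Gbp7* at 296 ± 36.8, *Gbp2* at 191 ± 12.2, *Gbp3* at 157 ± 16.7, *Iigp1* at 44.9 ± 15.4, *Gbp4* at 24.9 ± 3.55, *Tgtp2* at 6.72 ± 2.38 and *Gbp6* at 2.18 ± 1.17. The replicate ranges overlapped for the neighbours *Irgm2* and *Igtp* and for *Irgm1* and *Gbp7*, and did not for the other neighbours. Control replicates varied by a median coefficient of variation of 14.0% (5.08% for *Irgm1* to 53.8% for *Gbp6*). Genes with lower Control levels per kb had higher log2 differences (Spearman's rho across the 10 genes -0.89, and -0.48 across 26 with the rest of the family). This is a description only, since genes share libraries and both measures use the Control values. It was also partly fixed by the filter, which *Gbp6* and *Tgtp2* passed only through LS1. The same holds for *Gbp10*, *Gbp11*, *Gm4841* and *Gvin1* among the 26.

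The make-up of the group differed between libraries. Of the summed normalised count per kb of the 10 genes, *Irgm2* made up 33.6%, 37.5% and 32.5% in Control, 14.3% and 10.7% in LS1 replicates 1 and 2, and 30.6% in LS1 replicate 3. *Gbp2* made up 6.38%, 6.41% and 7.50% in Control, and 17.3%, 21.1% and 9.42% in the LS1 libraries. *Iigp1* made up 1.95%, 1.47% and 1.25% in Control, and 9.73%, 9.10% and 1.92% in LS1. The share of *Igtp* moved less, at 31.2%, 28.2% and 27.0% in Control and 29.6%, 35.0% and 24.9% in LS1. The regulator *Irgm2* thus led in Control and in LS1 replicate 3, while *Igtp* led in LS1 replicates 1 and 2, followed by *Gbp2*.

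**Figure D4:**
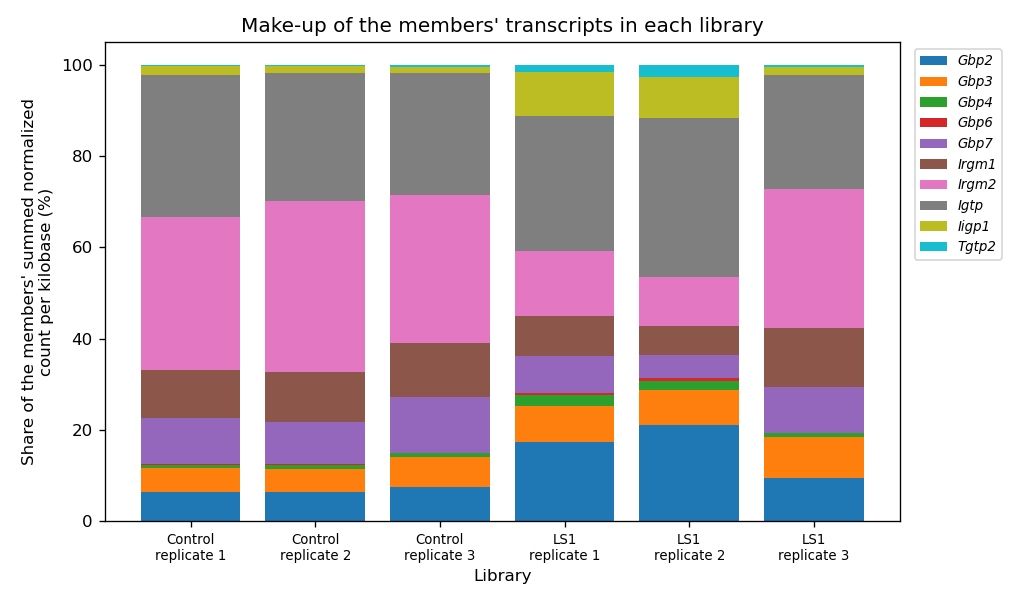
Share (%) of each of the 10 genes in their summed normalised count per kilobase, stacked to 100% for each library. The 3 Control bars and the bar of LS1 replicate 3 look alike, with *Irgm2* at 30.6% to 37.5%, while LS1 replicates 1 and 2 hold less *Irgm2* (14.3% and 10.7%) and more *Gbp2* and *Iigp1*.

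The rest of the GBP and IRG family was high in the same LS1 libraries. Of 18 further genes named, 17 were in the table (*Gvin2* was not matched) and 16 passed the filter (*Irgc1*, a testis gene, had at most 11 reads in a library). All 16 were higher in LS1 by a median log2 difference of 2.14 (0.68 for *9930111J21Rik2* to 4.12 for *Gbp2b*). For 4 of them (*Gbp10*, *Gbp11*, *Gm4841* and *Gvin1*) the Control libraries averaged under 20 reads, so that they passed the filter only through LS1 and were bound to be higher there. None passed the adjusted threshold by limma, edgeR or limma-voom. By limma 3 had an unadjusted p below 0.05 (*Gbp11*, *9930111J21Rik2* and *Gvin1*), against 7.08% of all genes called higher. DESeq2 called 7, against 1.43% of all genes called higher. Without LS1 replicate 3, the library near Control level, limma called 12, against 1.17% of all genes called higher. Without LS1 replicate 1 it called 0, and without LS1 replicate 2 also 0. LS1 replicates 1 and 2 were above all Control libraries in 16 of 16 genes, a count with no share of all genes beside it. LS1 replicate 3 was above the Control range in 2, within it in 7 and below it in 7.

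Single genes of the family differed in how far the high libraries stood apart. *Gbp11* measured 23.2, 13.3 and 6.64 in Control and 185, 158 and 26.1 in LS1, with a log2 difference of 2.75 (SE 0.73, adjusted p = 0.228 by limma). LS1 replicate 1 was above LS1 replicate 2 here, as it was in *Gvin1* and in *9930111J21Rik1* and *9930111J21Rik2*. *Gbp5*, which aids inflammasome activation, measured 184, 215 and 217 in Control and 2641, 7333 and 165 in LS1, with LS1 replicate 3 below all Control libraries. *Ifi47* (Irgd) measured 1002, 787 and 779 in Control and 3386, 9527 and 1019 in LS1, and its groups did not overlap (log2 difference 1.91, SE 0.88, adjusted p = 0.458 by limma). *Tgtp1* measured 41.4, 32.2 and 58.6 in Control and 1076, 2619 and 20.5 in LS1, and had the smallest adjusted p of the family without LS1 replicate 3 (3.6e-05 by limma). That fit leaves out the library in which *Tgtp1* was lowest, so the small p was partly fixed by the choice. With all libraries its adjusted p was 0.585 by limma.

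Of the interferon ligands, only *Ifng*, the gene of interferon-gamma, had enough reads to be tested. It had 11, 0 and 8 reads in Control and 119, 255 and 7 in LS1. It passed the filter only through LS1 replicates 1 and 2, so a higher value in LS1 was partly fixed by the filter. The log2 difference was 3.55 (SE 1.52, unadjusted p = 0.0553 and adjusted p = 0.398 by limma), and 5.02 without LS1 replicate 3 (adjusted p = 0.0609 by limma). It was 3.06 without LS1 replicate 1 and 2.58 without LS1 replicate 2 (adjusted p = 0.544 and 0.527 by limma). The 9 other ligands had at most 6 reads in any library, *Ifnb1* at most 1 and *Ifna1* none, so differences in them were not detectable at this depth.

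Receptors and signal carriers had smaller log2 differences. Of 18 such genes none passed by limma, edgeR, DESeq2 or limma-voom, and the median log2 difference was 0.23. By limma 2 had an unadjusted p below 0.05 and were higher, as were 7.08% of all genes. *Irf1*, an interferon-induced transcription factor, measured 3151, 3019 and 3420 in Control and 6047, 15754 and 2851 in LS1 (log2 difference 1.02, SE 0.66, adjusted p = 0.573 by limma). Its groups overlapped through LS1 replicate 3. The receptor subunits *Ifngr1* and *Ifngr2* had log2 differences of 0.13 (SE 0.16) and 0.16 (SE 0.13).

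The named examples of other genes that interferons induce were high in the same libraries. Of all genes, 12.9% had an unadjusted p below 0.05 by limma (7.08% higher). DESeq2 called 1.43% of all genes higher, and limma without LS1 replicate 3 called 1.17% higher. In both lists below, limma called 0 genes without LS1 replicate 1 and 0 without LS1 replicate 2. Of 16 tested interferon-gamma induced genes, 14 were higher and 2 lower, with a median log2 difference of 1.56, and 4 (*Cxcl10*, *Cxcl11*, *Slamf8* and *Batf2*) passed the filter only through LS1. None passed by limma, edgeR or limma-voom, 5 had an unadjusted p below 0.05 by limma (4 higher and 1 lower), DESeq2 called 5, and limma without LS1 replicate 3 called 6. *Cxcl9*, a chemokine that draws T cells, measured 85.8, 108 and 43.1 in Control and 5531, 28600 and 117 in LS1, and *Cxcl10*, a related chemokine, 36.3, 14.4 and 9.95 in Control and 1351, 5753 and 34.5 in LS1. Their log2 differences were 5.15 (SE 2.33, adjusted p = 0.459 by limma) and 5.14 (SE 2.17, adjusted p = 0.434 by limma). Of 18 type I interferon induced genes all were higher, with a median of 1.501. None passed by limma, edgeR or limma-voom, 6 had an unadjusted p below 0.05 by limma, DESeq2 called 5, and limma without LS1 replicate 3 called 12. The groups overlapped for 14 of the 18, and every LS1 library exceeded Control for 4, as for 10.3% of all genes. *Ifit1* had the highest log2 difference of the list, 2.34 (SE 1.22, adjusted p = 0.501 by limma), and LS1 replicate 3 lay within its Control range. *Oas2*, a sensor of double-stranded RNA and 1 of the 4, measured 148, 127 and 124 in Control and 953, 1159 and 197 in LS1. Its log2 difference was 2.17 (SE 0.64, adjusted p = 0.279 by limma).

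Genes of the machinery that GBPs and IRGs work with were read by 3 lists, of which the inflammasome list had the highest median. Beside the counts below, 12.9% of all genes had an unadjusted p below 0.05 by limma (7.08% higher). In 10.3% of all genes every LS1 library exceeded Control. DESeq2 called 1.43% of all genes higher, and limma without LS1 replicate 3 called 1.17% higher. In each of the 3 lists, limma called 0 genes without LS1 replicate 1 and 0 without LS1 replicate 2. For 14 autophagy conjugation and vacuole ubiquitin genes the median log2 difference was 0.089, none passed by limma, edgeR, DESeq2 or limma-voom, and 1 had an unadjusted p below 0.05 by limma. The highest were *Rnf213* and *Trim21*, ubiquitin ligases with log2 differences of 0.93 (SE 0.53) and 0.77 (SE 0.28), and these were the 2 that limma called without LS1 replicate 3. For 6 protein prenylation enzymes, which attach the lipid that some GBPs carry, the median was 0.016, none passed by the 4 tools, and 1 (*Zmpste24*) had an unadjusted p below 0.05 by limma. For 8 cytosolic inflammasome genes the median was 0.56, and in 4 of the 8 every LS1 library exceeded Control. None passed by limma, edgeR or limma-voom, 4 had an unadjusted p below 0.05 by limma, and DESeq2 and limma without LS1 replicate 3 each called 1, *Casp1*. *Casp1* measured 1143, 1101 and 1073 in Control and 2223, 2921 and 1373 in LS1 (log2 difference 0.91, SE 0.24, adjusted p = 0.220 by limma).

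Markers of the cells that the epiphysis holds were read beside these genes, as 11 lists of 105 genes in all, none of which was at 0 reads in any library. No list had a gene past the adjusted threshold by limma, edgeR or limma-voom. Beside the counts of all 11 lists, 12.9% of all genes had an unadjusted p below 0.05 by limma (7.08% higher). DESeq2 called 2.36% of all genes in either direction. The 14 T and NK cell markers had a median log2 difference of 0.90, with 5 at an unadjusted p below 0.05 by limma (4 higher and 1 lower) and 3 called by DESeq2. Their summed normalised count was 3901, 3277 and 4370 in Control and 4601, 9543 and 4372 in LS1, so LS1 replicate 2 stood furthest apart. The list's median of log2(value + 1) minus the Control mean was 0.071, -0.25 and 0.22 in Control and 0.33, 1.76 and 0.077 in LS1. LS1 replicates 1, 2 and 3 were above all Control libraries for 8, 12 and 5 of the 14. The share of all genes above Control in 1 such library was not computed, so these counts are a description. *Cd8a* measured 9.08, 29.9 and 28.8 in Control and 141, 568 and 19.6 in LS1, and *Ncr1*, an NK cell receptor, 92.8, 160 and 110 in Control and 373, 439 and 215 in LS1. The 12 macrophage markers were all higher (median 0.32), with 4 at an unadjusted p below 0.05 by limma and 1 called by DESeq2 (*Mpeg1*). Their sum ranged from 85960 to 121540 in the Control libraries and from 133070 to 156820 in those of LS1. LS1 replicates 1, 2 and 3 were above all Control libraries for 6, 8 and 3 of the 12, again with no share of all genes beside them. The part of these cells in the results on the GBPs and IRGs was not tested.

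The 8 plasmacytoid and dendritic cell markers had a median log2 difference of 0.52, with 2 at an unadjusted p below 0.05 by limma and none called by DESeq2, and the highest value was 1.41 (SE 0.60) for *Bst2*, itself induced by interferon. The 12 chondrocyte markers had a median of 0.56, with 7 at an unadjusted p below 0.05 by limma and 5 called by DESeq2, and their medians were above Control in LS1 replicate 3 too (0.64, 0.65 and 0.48 in LS1 replicates 1, 2 and 3). Of 10 B cell markers 9 were lower (median -0.44), with 6 at an unadjusted p below 0.05 by limma and 2 called by DESeq2. All 8 erythroid markers were lower (median -0.53), with 4 at an unadjusted p below 0.05 by limma, and none called by DESeq2. All 8 skeletal muscle markers were lower too (median -0.72), with 1 at an unadjusted p below 0.05 by limma and 1 called by DESeq2 (*Mb*). The 10 neutrophil markers had a median of 0.33, with 3 at an unadjusted p below 0.05 by limma and none called by DESeq2. The 8 osteoblast and osteocyte markers had a median of 0.085, with 1 at an unadjusted p below 0.05 by limma and 1 called lower by DESeq2 (*Bglap*, log2 difference -1.10 by limma). Endothelial markers had a median of 0.083, with 2 of 8 at an unadjusted p below 0.05 by limma, and osteoclast markers one of 0.026, with 0 of 7, and DESeq2 called none of either list. The part of these lists in the results was not tested either.

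**Figure D5:**
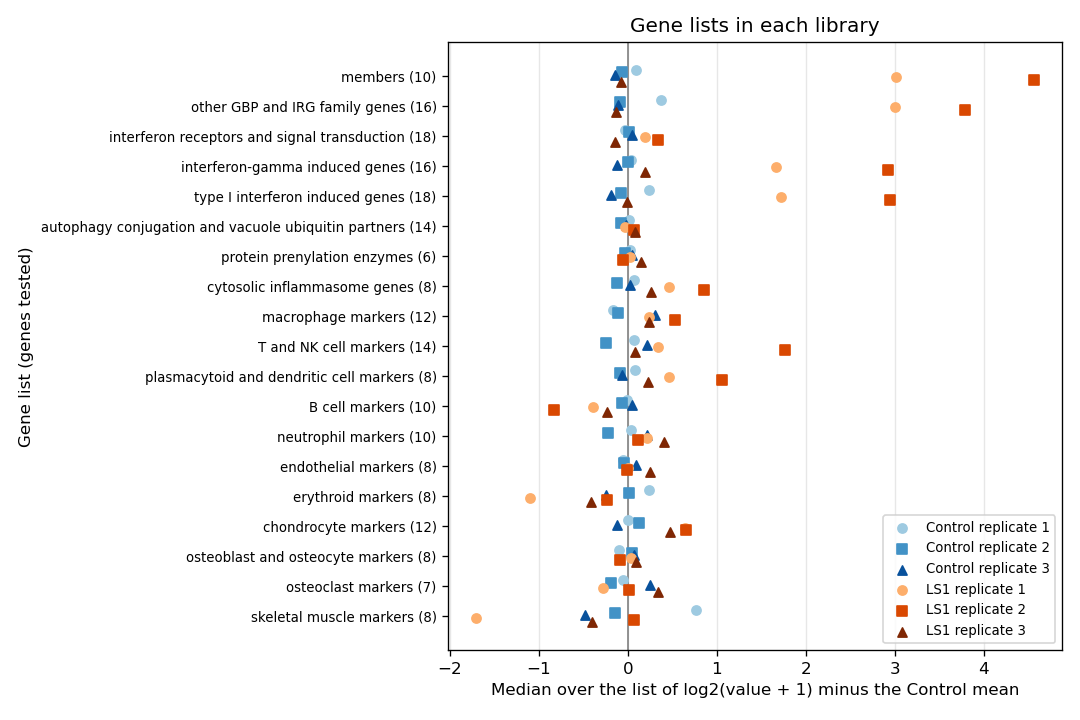
Median over each gene list of log2(value + 1) minus the Control mean, with 1 point per library and the number of tested genes in brackets. The 10 genes described here ("members", at 3.02, 4.57 and -0.08 in LS1 replicates 1, 2 and 3), the rest of their family and both lists of interferon induced genes have LS1 replicates 1 and 2 far to the right and LS1 replicate 3 near 0, while the cell type lists lie within a narrower range.

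Genes whose pattern over the 6 libraries was most like the mean profile of the 10 were taken by Pearson's r of log2(value + 1). As 2 libraries stand far above the other 4, r rests mainly on those 2 and is a description. The members themselves had r of 0.961 to 1.00 with their mean, *Ifng* had 0.880, and 142 genes had at least 0.95. Outside the lists the highest were *Gpr65*, a proton-sensing receptor (0.998), *Ccl12*, a monocyte chemokine (0.997), *Phf11d* (0.994), *Gimap7* (0.993), *Parp9* (0.993), *Cblb* (0.990), the class I histocompatibility gene *H2-K1* (0.989), *Parp14* (0.989), *Dtx3l* (0.988) and *Ifi204* (0.988). Likeness of pattern did not go with likeness in size. *Cblb* measured 2733, 2786 and 2793 in Control and 3253, 3497 and 2692 in LS1, while *H2-K1* measured 12840, 13347 and 12148 in Control and 27299, 56190 and 13964 in LS1.

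Genes lying beside the clusters of chromosomes 3, 5 and 11 were looked up after the members' values were known, and neighbours on chromosome 18 were not analysed here. Within 250 kb of the chromosome 3 cluster, 5 other tested genes had a median log2 difference of 0.25 (0.058 to 0.58). Beside the chromosome 5 cluster 8 had a median of 0.031 (-0.39 to 0.71). The highest there was *Abcg3*, at 561, 616 and 591 in Control and 1109, 1142 and 700.5 in LS1 (adjusted p = 0.253 by limma). Beside the *Igtp* and *Irgm2* cluster 10 had a median of -0.14 (-0.69 to 0.087). Around the *Irgm1* and *Tgtp2* cluster 13 had a median of -0.012 (-0.35 to 3.01). The highest there were *Olfr56*, at 7.06, 23.3 and 6.64 in Control and 21.9, 526 and 63.4 in LS1 (LS1 replicate 1 inside the Control range, unlike the members), and *Gm12185*, at 44.4, 31.0 and 68.6 in Control and 539.9, 1702 and 12.1 in LS1. The annotated locus of *Olfr56* runs across *Tgtp1*, *Tgtp2* and *Ifi47*, and that of *Gm12185* overlaps *Tgtp1*, so their reads cannot be told apart from those of the family here.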

How the data were processed

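Polyadenylated RNA of 3 Control mice was compared with that of 3 LS1 mice, with both epiphyses of the proximal tibia pooled per mouse. The submitters' processing notes name GRCm38, HISAT2 2.0.2, featureCounts 1.4.6 and DESeq2, and the strand setting of counting is not given in the sources used here. The deposited values are a normalised signal for 47729 genes: counts which the authors scaled with a size factor for each library. All 6 columns were used, and 0 were left unused. Undoing that scaling gave back the reads, and 100% came out whole within 0.01 in each library. In Control replicate 1 a single read was worth 1.01, too near 1 to tell recovered reads from rounded values. Totals were 68803249 to 88745366 reads per library, and genes with few reads carry wider counting error.

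The 19308 genes that averaged 20 recovered reads or more were tested by limma 3.58.1 (R 4.3.3) on log2(value + 1), with a mean-variance trend, robust moderation and no covariate, and adjusted by the Benjamini-Hochberg method at 0.05. Fold changes on this scale understate those of low genes. The alternatives were edgeR 4.0.16 (quasi-likelihood, 7 genes called), DESeq2 1.42.0 and limma-voom on the recovered reads, TMM scaling, other filters and pseudocounts, a replicate block, and each library left out. The script was tested on simulated data first. Symbols came from GENCODE M21, a later release than the authors used, for 98.9% of identifiers, and promoter windows from RefSeq on GRCm38.p6. Protein sequences were not used here. The members and gene lists were chosen with earlier results of these data known, so no p was adjusted over a list and no set was tested. Named genes were all members, genes of the family, up to 4 tested genes per other list with the largest absolute log2 difference, and the 10 genes outside the lists most like the members. The receptor subunits and the cluster neighbours stand outside that rule and were chosen after their values were seen. Some results are not reported here.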

Additional observations from a re-analysis of the deposited data

How the results depend on the processing

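In 18 alternative fits, all 180 log2 differences of the 10 genes kept their direction. Of these, 147 stayed on the same side of the threshold while 33 moved past it. The fits reuse the same 6 libraries, and each keeps LS1 replicate 1, LS1 replicate 2 or both. They are therefore not independent checks of direction. The count called over all genes was 14 with limma, against 7 with edgeR, 456 with DESeq2, 8 with limma-voom, 45 with no filter on low counts and 9 with a mean of at least 100 reads. With 1 library left out limma called 5 to 324, with 9 without Control replicate 1, 5 without Control replicate 2, 46 without LS1 replicate 1 and 324 without LS1 replicate 3. Fits chosen after seeing the data called 5 (edgeR without Control replicate 1), 296 (edgeR without LS1 replicate 3) and 992 (DESeq2 without LS1 replicate 3). Of the 10 genes DESeq2 called 6, and limma with 1 library left out called 0 to 7, while without LS1 replicate 3 edgeR called 10 and DESeq2 10. Of the rest of the family DESeq2 called 7, and limma with 1 library left out called 0 to 12, and edgeR and DESeq2 without LS1 replicate 3 called 14 and 13. Of the 81 pathway genes DESeq2 called 11, and limma with 1 library left out called 0 to 23, and edgeR and DESeq2 without LS1 replicate 3 called 34 and 43. The cause of these differences between tools was not tested. The median log2 difference of the 10 was 2.55, 3.47 with edgeR, 1.54 (without LS1 replicate 2) to 3.83 (without LS1 replicate 3) with limma and a library left out, and 4.003 with edgeR or DESeq2 without LS1 replicate 3. With the replicate block 12 genes were called in all and 0 of the 10, and the median stayed at 2.55. The labels do not say whether same-numbered mice shared a litter, day or batch, though their column names begin with the same letter (A, B or C). Deviations of same-numbered mice correlated by 0.054, 0.021 and 0.22, with 1 LS1 library closest to its own number. The block was therefore not used for the main test. With 3 mice per group, and LS1 replicates unlike each other, the group difference of these genes rests on 2 mice.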
